A study of Sus scrofa with 22 samples.

Results

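At embryonic day 5 the cells of the pig embryo were deposited in 2 groups, preICM_E5, the cells named for the future inner cell mass, and preTE_E5, those named for the future trophectoderm. The 2 groups hold 94 of the 1647 cells of the series, 34 preICM_E5 cells and 60 preTE_E5 cells. A cell belonged to a group when its weight passed 0.5 of the maximum in a least-squares fit of that group's deposited mean on log2(CPM/10 + 1) of all cells, where CPM is counts per 1000000 counts of a cell. The lowest weight inside preICM_E5 was 0.0281 and the highest outside it 0.00216; for preTE_E5 the values were 0.0155 inside and 0.00183 outside. The means of the cells found in this way lay within 0.001 of the deposited mean for 99.91% of 24264 genes in preICM_E5 and for 99.9% in preTE_E5.

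The series measured polyadenylated RNA of single cells by a modified Smart-seq2 protocol, a plate method that tags each cell with a barcode, in 20 libraries of pig embryos and 2 of embryonic stem cell lines. The labels name neither breed, sex nor embryo of a cell, no cell carried a treatment, and the sources used here do not give how the authors placed cells in groups, nor which genes, if any, defined them. All 34 preICM_E5 cells were in library P2, which also held 29 preTE_E5 cells and 6 Morula_E4 cells of embryonic day 4. Another 23 preTE_E5 cells were in library P13 and 8 in library P14, and the other 24 Morula_E4 cells were in library P1. At embryonic day 6, ICM_E6 had 18 cells in P14 and 14 in P15, and TE_E6 had 57 cells in P14 and 18 in P15. The 2 groups of day 5 thus met in 1 library, and no second library with preICM_E5 cells was analysed here that could show the spread between libraries.

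As background, the first lineage decision of the mammalian embryo separates the trophectoderm, the polarised epithelium that surrounds the cavity and later forms the placenta, from the inner cell mass, which gives rise to the epiblast and the hypoblast. In the mouse, outer cells keep the Hippo kinases inactive, so that YAP1 or WWTR1 enters the nucleus, binds TEAD4 and turns on trophectoderm genes such as Cdx2 and Gata3. Inner cells keep the pluripotency factors POU5F1 and SOX2, and GATA6 and PDGFRA mark the hypoblast lineage that later arises among them. Junctions, keratins and ion pumps of the trophectoderm make the epithelium tight and fill the cavity.

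Values below are CPM of a sum, the counts of all cells of a group in a library added together. In P2 the preICM_E5 sum held 7626533 counts and the preTE_E5 sum 4345333; the preTE_E5 sums of P13 and P14 held 5111704 and 3229925. Cells of the 2 groups differed in depth within P2. The median was 241589 counts and 9302 genes per preICM_E5 cell, against 114440 counts and 8125 genes per preTE_E5 cell. The median spike-in share was 1.77% in preICM_E5 cells and 2.71% in preTE_E5 cells, and the median mitochondrial share was 2.575% in preICM_E5 cells and 4.41% in preTE_E5 cells. P2 shared 10 cell barcodes with P13 and 2 with P14, and P13 shared 0 with P14. With cells of at least 100000 counts alone (31 preICM_E5 and 15 preTE_E5 cells) the log2 ratio in P2 was 2.68 for PDGFRA, against 2.65 with all cells, and -1.39 for KRT18, against -1.47. Over the 37 genes named by rule that limit moved the ratio by at most 0.37. The part of RNA quality in the differences was not tested.

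The labels were set against 8 markers each of inner cell mass and trophectoderm. Of the inner cell mass markers 6 of 8 were above the P2 preTE_E5 sum in preICM_E5 and 2, SOX2 and SPIC, were at least 2-fold higher. SOX2, at 56.25 CPM in preICM_E5, was below the 85.1 CPM of preTE_E5 in P14. For POU5F1, KLF4, TFCP2L1 and NANOG the log2 ratio in P2 was at most 0.4, with intervals of counting error that covered 0. The median log2 ratio over the 8282 genes of at least 10 CPM was 0.02. The 8 inner cell mass markers summed to 1287 CPM in preICM_E5, against 973.7, 1020 and 854.8 CPM in the preTE_E5 sums of P2, P13 and P14. No trophectoderm marker was above the P2 preTE_E5 sum, and 6 of 8 were at least 2-fold lower. CDX2, 1 of the 6, had 1 count in preICM_E5 and 8 in preTE_E5 of P2. Of the other 5, with a mean of at least 10 CPM over the P2 sums, only TEAD4 and DAB2 were also below P13 and P14. The 8 trophectoderm markers summed to 1015 CPM in preICM_E5, against 2396, 1139 and 1363 CPM in preTE_E5. The preICM_E5 level was thus below all 3 sums, with the P13 sum the nearest. Of 4 hypoblast markers, 2 were higher in preICM_E5, PDGFRA at a log2 ratio of 2.65 and GATA6 at 0.08. The interval of counting error of GATA6 covered 0. The 4 markers summed to 688.6 CPM in preICM_E5 and 491.1, 402.4 and 287 CPM in preTE_E5. Of the hypoblast markers GATA6, PDGFRA and GATA4 were counted in both groups, and SOX17 was at or near 0, as was FGF4, a ligand of the epiblast. SOX17 had 0.131 CPM in preICM_E5 and 0.230, 0.783 and 0 CPM in preTE_E5, and FGF4 had 0 CPM in preICM_E5 and 0, 1.76 and 0 CPM in preTE_E5. A count of 0, taken as up to 3 counts, allows at most 0.393 CPM in the preICM_E5 sum and 0.690 CPM in the preTE_E5 sum of P2. Markers of other cells were low. The 4 oocyte markers summed to 12.19 CPM in preICM_E5 and 11.97, 83.7 and 15.5 CPM in preTE_E5, the 3 cumulus markers to 0.787 CPM in preICM_E5 and at most 0.587 CPM in preTE_E5, and the 3 blood markers to 7.34 CPM in preICM_E5 and at most 11.35 CPM in preTE_E5.

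Within P2 the sums of the 2 groups were more alike than preTE_E5 sums of different libraries were. Of 8282 genes whose mean over the 2 P2 sums was at least 10 CPM, 309 (3.73%) were at least 2-fold higher in preICM_E5 and 391 (4.72%) at least 2-fold lower, on a scale of log2(CPM + 1). Together these are 8.45% of the genes; between preTE_E5 sums, 15.4% of genes were at least 2-fold apart for P2 and P13, 28.3% for P2 and P14 and 19.2% for P13 and P14. A gene is called held here when its preICM_E5 sum also lay on the same side of the P13 and P14 preTE_E5 sums. Of the higher genes 248 (2.99% of 8282) were held and of the lower genes 233 (2.81%). Counts of the gene lists below are to be read beside these shares, and the lists were chosen with earlier results of these data known. Intervals beside single ratios below are 95% exact counting intervals; they cover counting error alone, not the spread between embryos or libraries.

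**Figure D1:**
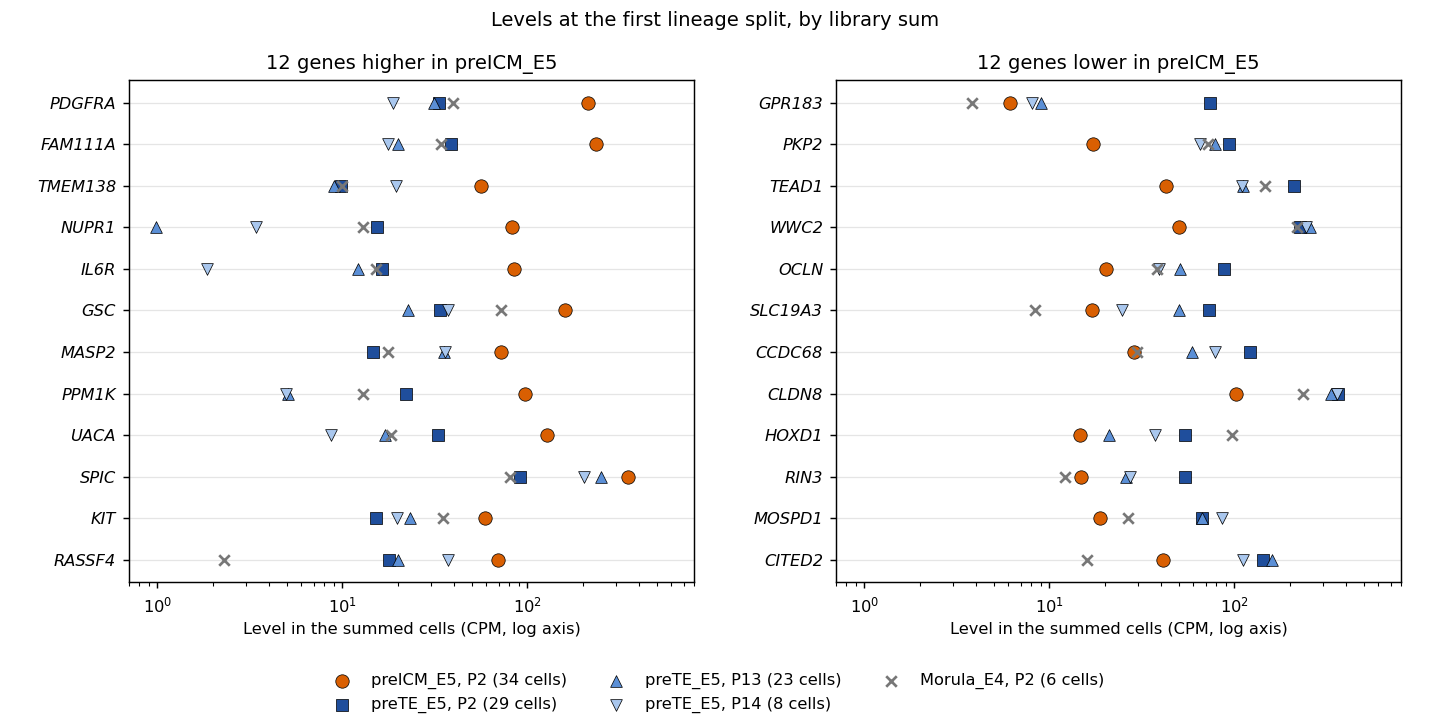
CPM (log axis) of the 12 named genes higher in preICM_E5 (left) and the 12 lower in it (right), in preICM_E5 of library P2, preTE_E5 of P2, P13 and P14 and Morula_E4 of P2; each point is 1 sum of cells. PDGFRA stands at 213 CPM in preICM_E5 and between 18.9 and 33.1 CPM in preTE_E5, and PKP2 at 17.3 CPM in preICM_E5 and between 65.0 and 93.4 CPM in preTE_E5.

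PDGFRA, the alpha receptor for platelet-derived growth factor (pig chromosome 8, 40966568 to 41021440, Sscrofa11.1), had the largest ratio in favour of preICM_E5 among the held genes of at least 50 CPM. It had 213 CPM in preICM_E5, against 33.1, 31.3 and 18.9 CPM in preTE_E5 of P2, P13 and P14. The log2 ratio in P2 was 2.65 (interval 2.44 to 2.94). A preICM_E5 sum above all 3 preTE_E5 sums was a condition of its selection. HNF4A, a nuclear receptor of visceral endoderm and liver, had 39.3 CPM in preICM_E5, against 6.44, 0.587 and 0.310 CPM in preTE_E5, a log2 ratio of 2.44 (2.05 to 3.22). OTX2, a homeobox factor of the epiblast and anterior endoderm in the mouse, had 363.5 CPM in preICM_E5, against 163, 262.5 and 289 CPM in preTE_E5, a log2 ratio of 1.15 (1.04 to 1.28). These were 3 of the 8 hypoblast genes over 10 CPM; all 3 were held, and none of the 8 was 2-fold lower. The others did not follow. GATA6, the hypoblast zinc finger factor, had 455 CPM in preICM_E5 and 432, 349 and 257 CPM in preTE_E5, a log2 ratio of 0.08 (-0.01 to 0.16), and GATA4, a related factor, had 20.3 CPM in preICM_E5 and 26.0, 21.5 and 10.84 CPM in preTE_E5. APOA1, an apolipoprotein secreted by hypoblast, had 56.5 CPM in preICM_E5 and 55.9, 169 and 12.7 CPM in preTE_E5.

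Components of the interleukin 6 and LIF pathway had a median log2 ratio of 1.04 over 8 genes, the highest among the lists with at least 4 genes over 10 CPM, against 0.02 over all 8282 genes. In this pathway a cytokine binds a receptor that joins IL6ST, the kinases JAK1 and JAK2 are activated, and STAT3 is phosphorylated. IL6R, the interleukin 6 receptor, had 84.3 CPM in preICM_E5, against 16.3, 12.1 and 1.86 CPM in preTE_E5, a log2 ratio of 2.30 (2.01 to 2.74). IL6ST, the signal-transducing chain shared by the receptors of the family, had 190.1 CPM in preICM_E5, against 75.7, 122 and 96.0 CPM in preTE_E5, a log2 ratio of 1.32. JAK2 had 41.8 CPM in preICM_E5, against 14.7, 17.8 and 8.05 CPM in preTE_E5, a log2 ratio of 1.45. STAT3 had 252 CPM in preICM_E5, against 103, 109 and 109 CPM in preTE_E5, a log2 ratio of 1.28 (1.14 to 1.44). All 4 were held, with preTE_E5 of the 3 libraries close together for STAT3. The ligand went the other way by sum: IL6 had 10.9 CPM in preICM_E5, against 43.7, 45.4 and 26.3 CPM in preTE_E5, a log2 ratio of -1.91 (-2.40 to -1.63). Its medians over cells were 6.56 CPM in preICM_E5 and 0, 11.3 and 27.0 CPM in preTE_E5 of P2, P13 and P14. The P2 ratio thus rests on part of the preTE_E5 cells, of which 1 held 25.8% of the summed CPM. PIM1, a kinase encoded by a target of STAT3, was also lower by sum, at 49.8 CPM in preICM_E5 and 108, 175.5 and 132 CPM in preTE_E5. JAK1 was at 44.3 CPM in preICM_E5 and 24.9, 51.1 and 34.7 CPM in preTE_E5, and SOCS3, the feedback inhibitor of the pathway, at 25.04 CPM in preICM_E5 and 23.9, 11.2 and 8.98 CPM in preTE_E5, both less than 2-fold apart in P2.

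Of the 8 FGF signalling genes over 10 CPM, 2 were at least 2-fold higher and none lower. FGFR4, one of the FGF receptors, had 64.0 CPM in preICM_E5, against 16.6, 20.4 and 11.5 CPM in preTE_E5, a log2 ratio of 1.89 (1.59 to 2.33). ETV1, an ETS factor downstream of FGF signalling, had 16.8 CPM in preICM_E5, against 6.44, 3.91 and 1.24 CPM in preTE_E5. Under 10 CPM, DUSP6 of the same list went the other way in P2, at 0.393 CPM in preICM_E5 and 5.75 CPM in preTE_E5. The ligand FGF4 was at or near 0 in both groups, and FGFR2, at 19.9 CPM in preICM_E5 and 17.3 CPM in preTE_E5 of P2, was close to equal within the library.

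The pluripotency genes went both ways. POU5F1, the POU factor of the pluripotent state, had 439.5 CPM in preICM_E5 and 419.5, 271 and 176.5 CPM in preTE_E5, a log2 ratio of 0.07 (-0.02 to 0.15). SOX2, its partner, had 56.25 CPM in preICM_E5 and 25.5, 41.7 and 85.1 CPM in preTE_E5. Its log2 ratio in P2 was 1.11 (0.83 to 1.45), but the preTE_E5 sum of P14 was above preICM_E5, so SOX2 was not held. NANOG was near its detection limit, with 1.84 CPM in preICM_E5 and 1.15, 2.15 and 4.03 CPM in preTE_E5. SPIC, an ETS factor, was the exception among the naive pluripotency genes, at 348.5 CPM in preICM_E5 and 91.6, 251 and 202 CPM in preTE_E5, a log2 ratio of 1.92 (1.78 to 2.08). KLF4 had 350.4 CPM in preICM_E5 and 336, 359 and 304 CPM in preTE_E5, while KLF5, with 164 CPM in preICM_E5, was below the 337 CPM of preTE_E5 in P2 but above the 86.4 CPM of P14. ZFP42, a zinc finger gene known as Rex1 in the mouse, was lower in preICM_E5 (36.7 CPM) than in all preTE_E5 sums (79.2, 108 and 88.2 CPM). Of the 7 core and 9 naive pluripotency genes over 10 CPM, 1 each was at least 2-fold higher and 1 and 2 were at least 2-fold lower, with medians of -0.17 and -0.16.

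The other genes with the largest ratios in favour of preICM_E5 came from several classes. FAM111A, a nuclear protease, had 234 CPM in preICM_E5, against 38.9, 19.95 and 17.65 CPM in preTE_E5, a log2 ratio of 2.56 (2.36 to 2.82). GSC, the homeobox gene goosecoid, had 160 CPM in preICM_E5, against 33.6, 22.7 and 37.5 CPM in preTE_E5, a log2 ratio of 2.22. UACA, an ankyrin repeat and coiled-coil protein, had 128 CPM in preICM_E5, against 32.9, 17.02 and 8.67 CPM in preTE_E5. These genes were named from among the held genes, so a preICM_E5 sum above all 3 preTE_E5 sums was a condition of naming them. PPM1K, a mitochondrial phosphatase of branched-chain amino acid breakdown, had 96.9 CPM in preICM_E5, against 22.1, 5.09 and 4.95 CPM in preTE_E5. NUPR1, a stress-induced nuclear protein, had 82.3 CPM in preICM_E5, against 15.4, 0.978 and 3.41 CPM in preTE_E5. KIT, the receptor for stem cell factor, had 59.4 CPM in preICM_E5, against 15.2, 23.1 and 19.8 CPM in preTE_E5. MASP2, a complement protease gene, RASSF4, a Ras-association protein gene, and TMEM138, which encodes a protein of cilia, had log2 ratios of 2.21, 1.89 and 2.40. MASP2 and RASSF4 overlap other annotated genes (TARDBP and C14H10orf10), and whether strand was used in counting is not stated. PECAM1, an adhesion molecule of endothelium, had 106 CPM in preICM_E5, against 33.4, 29.7 and 39.3 CPM in preTE_E5; it was the uterine and stromal list's only gene over 10 CPM.

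On the other side, the keratin and desmosome genes were more often lower than the 8282 genes as a whole, of which 4.72% were at least 2-fold lower. Keratins 8 and 18 form the filaments of simple epithelia, and desmosomes anchor those filaments between cells. Of the 9 keratin and desmosome genes over 10 CPM, 6 were at least 2-fold lower in preICM_E5 and none higher, with a median log2 ratio of -1.12, and 4 of the 6 were held. PKP2, a desmosomal plaque protein, had 17.3 CPM in preICM_E5, against 93.4, 78.6 and 65.0 CPM in preTE_E5, a log2 ratio of -2.37 (-2.73 to -2.15). DSC2, a desmosomal cadherin, had 97.95 CPM in preICM_E5, against 266.5, 234 and 200.3 CPM in preTE_E5, and PERP, a desmosomal membrane protein, had 62.5 CPM in preICM_E5, against 166, 109 and 281 CPM in preTE_E5. For DSP, which links the plaque to keratin, the values were 44.7 CPM in preICM_E5 and 98.04, 60.25 and 55.1 CPM in preTE_E5.

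The keratins themselves were not held. KRT18 (chromosome 5, 18217686 to 18221432) had 281 CPM in preICM_E5, against 783.6, 249 and 322 CPM in preTE_E5, a log2 ratio of -1.47 (-1.56 to -1.40) in P2. KRT8, its partner, had 393 CPM in preICM_E5, against 781, 256 and 370 CPM in preTE_E5, a log2 ratio of -0.99. The preICM_E5 level of KRT18 was thus above the preTE_E5 sum of P13, and that of KRT8 above those of both P13 and P14. GATA2 and GATA3, zinc finger factors of the trophectoderm, showed the same pattern. GATA2 had 6.69 CPM in preICM_E5, against 41.0, 1.96 and 5.26 CPM in preTE_E5, and GATA3 had 10.6 CPM in preICM_E5, against 31.5, 2.15 and 3.72 CPM in preTE_E5. For these 4 genes the preTE_E5 cells of P2 stood above those of P13 and P14.

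Tight junctions seal the epithelium. Of 19 genes of tight junctions and polarity over 10 CPM, 3 were at least 2-fold lower in preICM_E5 and none higher. Over all 8282 genes 4.72% were at least 2-fold lower. OCLN, the junction protein occludin, had 20.3 CPM in preICM_E5, against 88.1, 51.1 and 39.3 CPM in preTE_E5, a log2 ratio of -2.06 (-2.40 to -1.84). Its medians over cells were 13.7 CPM in preICM_E5 and 83.0, 10.7 and 26.8 CPM in preTE_E5 of P2, P13 and P14. TJP3, a scaffold of tight junctions, had 4.85 CPM in preICM_E5, against 20.25, 7.04 and 15.5 CPM in preTE_E5. CLDN4 was 2-fold lower in P2 but not held, at 214 CPM in preICM_E5 and 433, 174 and 226 CPM in preTE_E5. CLDN8, a claudin outside the list, had 102 CPM in preICM_E5, against 365, 335 and 359.5 CPM in preTE_E5, a log2 ratio of -1.84 (-1.97 to -1.72). The adherens junction genes were level: CDH1, which encodes E-cadherin, had 374 CPM in preICM_E5 and 398, 386 and 282 CPM in preTE_E5, and CTNNB1 136 CPM in preICM_E5 and 139 CPM in preTE_E5 of P2. None of the 7 genes of ion and water transport over 10 CPM was 2-fold apart, and their median log2 ratio was -0.05. Beside the 4.72% of all 8282 genes, 3 of 25 actin and adhesion genes were 2-fold lower and none higher. They were ACTN1, a crosslinker of actin, with 155 CPM in preICM_E5 and 367, 195 and 172 CPM in preTE_E5, ANXA2, a membrane-binding annexin, with 150.5 CPM in preICM_E5 and 312, 215 and 212 CPM in preTE_E5, and the tropomyosin TPM1, which was not held.

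DAB2 and LRP2 act in 1 uptake route, LRP2 (megalin) as the receptor and DAB2 as the adaptor that links it to clathrin. DAB2 had 163 CPM in preICM_E5, against 529, 383 and 292 CPM in preTE_E5, a log2 ratio of -1.69 (-1.80 to -1.60). LRP2 had 311 CPM in preICM_E5, against 735, 577 and 435 CPM in preTE_E5, a log2 ratio of -1.24 (-1.32 to -1.16). Both were held, and in P2 the preTE_E5 sum of each was also above its morula sum of 80.9 CPM for DAB2 and 178 CPM for LRP2. The other 4 uptake genes over 10 CPM were less than 2-fold apart.

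The Hippo pathway genes went both ways. The coactivators were higher in preICM_E5 by sum. WWTR1 (TAZ) had 298 CPM in preICM_E5, against 128, 107 and 81.7 CPM in preTE_E5, a log2 ratio of 1.21 (1.09 to 1.36). YAP1 had 80.4 CPM in preICM_E5, against 39.1, 76.7 and 17.96 CPM in preTE_E5 of P2, P13 and P14. Medians of YAP1 over cells were 61.7 CPM in preICM_E5 and 26.5, 90.3 and 12.6 CPM in preTE_E5. By median the P13 cells were thus above the preICM_E5 cells. The kinase gene STK3 was also higher, at 23.6 CPM in preICM_E5 and 5.75, 9.20 and 14.2 CPM in preTE_E5. Of the DNA-binding partners of the coactivators, TEAD1 and TEAD4 were lower. TEAD1 had 42.9 CPM in preICM_E5, against 210, 112 and 110.5 CPM in preTE_E5, a log2 ratio of -2.26 (-2.48 to -2.11), and TEAD4 had 46.15 CPM in preICM_E5, against 98.04, 117 and 212 CPM in preTE_E5. WWC2, a scaffold of the KIBRA family that acts upstream of the kinases, had 49.96 CPM in preICM_E5, against 228, 256 and 245 CPM in preTE_E5, a log2 ratio of -2.17 (-2.36 to -2.02). AMOT, the junction protein that holds YAP1 in the cytoplasm, had 64.4 CPM in preICM_E5, against 156, 130 and 83.6 CPM in preTE_E5. CCN2, a target gene of YAP1 in many cells, had 43.4 CPM in preICM_E5, against 94.1, 44.0 and 145.5 CPM in preTE_E5, the P13 value lying next to that of preICM_E5. AMOTL2, a relative of AMOT, had 25.8 CPM in preICM_E5 and 82.2, 30.7 and 20.1 CPM in preTE_E5, a log2 ratio of -1.63, and was not held. Of the 16 genes of the list over 10 CPM, 3 were 2-fold higher, 3 were 2-fold lower and the other 10 were less than 2-fold apart. Those 10 include the kinase genes LATS1 and LATS2, with log2 ratios of -0.74 and -0.54. TEAD3, of the TEAD family, had 50.35 CPM in preICM_E5 and 72.7, 58.5 and 17.03 CPM in preTE_E5, a log2 ratio of -0.52.

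Among 15 trophectoderm transcription factors over 10 CPM, 6 were at least 2-fold lower in preICM_E5 (GATA2, GATA3, TEAD1, TEAD4, GRHL2 and VGLL3, 4 of them held) and 1, ID1, was higher. CDX2 was scarcely counted, at 0.131 CPM in preICM_E5 and 1.84, 0.783 and 1.86 CPM in preTE_E5. TFAP2C, an AP-2 factor, had 114.5 CPM in preICM_E5 and 131, 129 and 157 CPM in preTE_E5, a log2 ratio of -0.19 (-0.35 to -0.04). ID1, an inhibitor of helix-loop-helix factors that responds to BMP, had 57.96 CPM in preICM_E5 and 26.7, 36.4 and 4.03 CPM in preTE_E5. ID2, its relative, was level in P2, at 46.9 CPM in preICM_E5 and 43.0 CPM in preTE_E5.

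The remaining genes with the largest ratios against preICM_E5 were of varied function. CITED2, a transcriptional coregulator, had 40.9 CPM in preICM_E5, against 143, 160 and 112 CPM in preTE_E5, a log2 ratio of -1.78. SLC19A3, a thiamine transporter, had 16.9 CPM in preICM_E5, against 72.7, 50.5 and 24.8 CPM in preTE_E5. CCDC68, a coiled-coil protein of the centrosome, had 28.7 CPM in preICM_E5, against 121, 59.1 and 78.6 CPM in preTE_E5. RIN3, an exchange factor for RAB5, HOXD1, a homeobox gene, and MOSPD1 had log2 ratios of -1.80, -1.82 and -1.78. For HOXD1 the medians over P2 cells were 8.68 CPM in preICM_E5 and 8.77 CPM in preTE_E5. In P13 the preTE_E5 medians of SLC19A3, CCDC68, RIN3 and HOXD1 were 4.82, 17.7, 5.73 and 5.21 CPM. Those of preICM_E5 were higher, at 8.40, 28.6, 8.23 and 8.68 CPM, although the sums went the other way. GPR183, a receptor for oxysterols, had the largest ratio, -3.38 (-4.05 to -3.13), from 6.16 CPM in preICM_E5 against 73.6, 8.999 and 8.05 CPM in preTE_E5. GPR183 overlaps the annotated gene UBAC2 and MOSPD1 overlaps SMIM10. TMEM138, NUPR1, GSC, TEAD1, WWC2, RIN3, MOSPD1, GATA2, GATA6 and DAB2 overlap annotated loci with no gene name, and their values are uncertain where counting did not use strand. A single cell held 56.6% of the summed CPM of GPR183 over the preTE_E5 cells of P2, and a single cell held 42.55% of that of TMEM138 over the preICM_E5 cells. The median of GPR183 over cells was 4.98 CPM in preICM_E5 and 0 CPM in preTE_E5 of P2, P13 and P14, opposite to the sums. For TMEM138 the medians were 12.4 CPM in preICM_E5 and 6.05, 0 and 23.35 CPM in preTE_E5.

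Few genes of metabolism and proliferation were 2-fold apart in P2, as over all 8282 genes, of which 8.45% were. A count of none or 1 in a list this short is near that share. Of 16 genes of nuclear oxidative phosphorylation and 15 of the cell cycle over 10 CPM none was 2-fold apart, with median log2 ratios of 0.12 and 0.09. Of 15 glycolytic genes 1 was, the hexokinase HK1, at 24.0 CPM in preICM_E5 and 10.82, 7.43 and 3.41 CPM in preTE_E5. Of 7 genes of DNA methylation 1 was, the methyltransferase DNMT3B, at 27.8 CPM in preICM_E5 and 12.4, 24.3 and 5.57 CPM in preTE_E5. None of the 4 Notch genes over 10 CPM was 2-fold apart, and of 10 p53 and stress genes 2, MDM2 and ATF3, were 2-fold lower. Of the lists of other cells, no oocyte gene reached a mean of 10 CPM over the 2 P2 sums. In preTE_E5 of P13, however, BMP15 had 54.0 CPM. The oocyte list summed to 27.4 CPM in preICM_E5 and 37.3, 226.5 and 87.6 CPM in preTE_E5 of P2, P13 and P14. Over the same P2 floor were 2 blood genes and 3 cumulus and granulosa genes. The cyclooxygenase PTGS2, 1 of those 3, had 30.55 CPM in preICM_E5 and 201, 11.5 and 16.4 CPM in preTE_E5. Over all 210 list genes past 10 CPM, 18 were at least 2-fold higher and 31 at least 2-fold lower, and the median log2 ratio was 0.00.

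**Figure D2:**
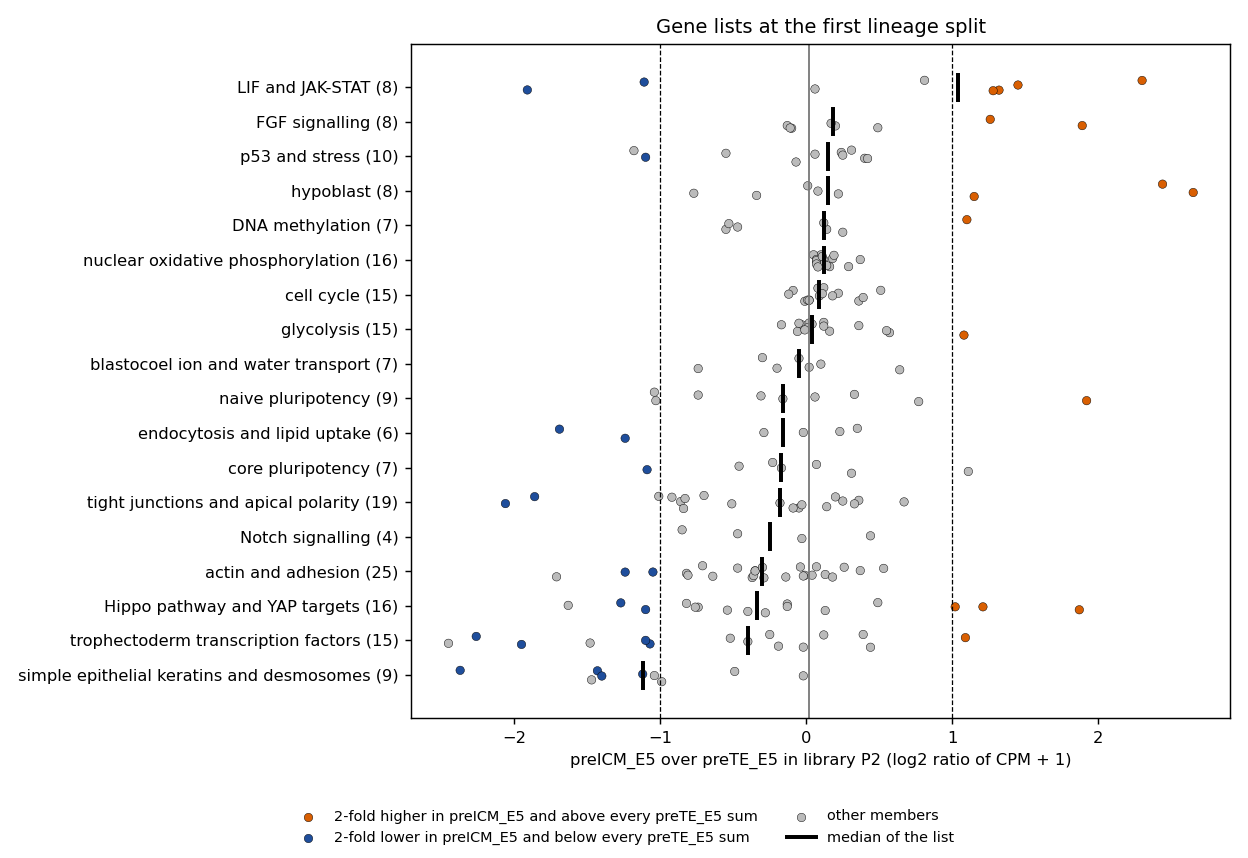
Log2 ratio of preICM_E5 over preTE_E5 in library P2 for each gene of at least 10 CPM in the lists with at least 4 such genes, 1 row per list, with the list's median as a black bar and the 2-fold limits dashed; each point is 1 gene, orange or blue where it was held as higher or lower. The keratin and desmosome genes centre on -1.12 and the LIF and JAK-STAT genes on 1.04, while oxidative phosphorylation lies close to 0 with a median of 0.12.

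Single cells of P2 showed how far the 2 groups overlapped. Cells of 1 library are not replicates, so these are descriptions. PDGFRA ranged over the 34 preICM_E5 cells from 8.52 through a median of 209 to 433 CPM, and over the 29 preTE_E5 cells from 0 through 18.2 to 137 CPM. In 24 of the 34 preICM_E5 cells it was above every preTE_E5 cell. It had no count in 8 of 29 preTE_E5 cells, which were shallower; after each cell was thinned to 50000 counts, it had a count in 93.9% of the 33 preICM_E5 cells (exact 95% binomial interval 79.8 to 99.3%) and 80.95% of the 21 preTE_E5 cells (58.1 to 94.55%) that had that depth. STAT3 and FAM111A were above every preTE_E5 cell in 21 of the 34 preICM_E5 cells each, IL6R in 18 and SPIC in 15. Groups overlapped for each of these genes. KRT18 ran from 118 through 245 to 772 CPM over preICM_E5 cells, and from 159 through 803 to 3155 CPM over preTE_E5 cells. These preTE_E5 cells had from 7608 to 431704 counts, so the ends of such a range can rest on few counts. In 16 of 29 preTE_E5 cells KRT18 was above every preICM_E5 cell, and the same count held for KRT8, DAB2 and DSC2. For OCLN, LRP2 and CITED2 it was 15 of 29. CLDN8 was below every preTE_E5 cell in 18 of the 34 preICM_E5 cells. For POU5F1, by contrast, 1 preTE_E5 cell was below and 2 were above every preICM_E5 cell, with medians of 445 CPM in preICM_E5 and 394 CPM in preTE_E5. SOX2 had a median of 37.3 CPM in preICM_E5 cells and 6.95 CPM in preTE_E5 cells.

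**Figure D3:**
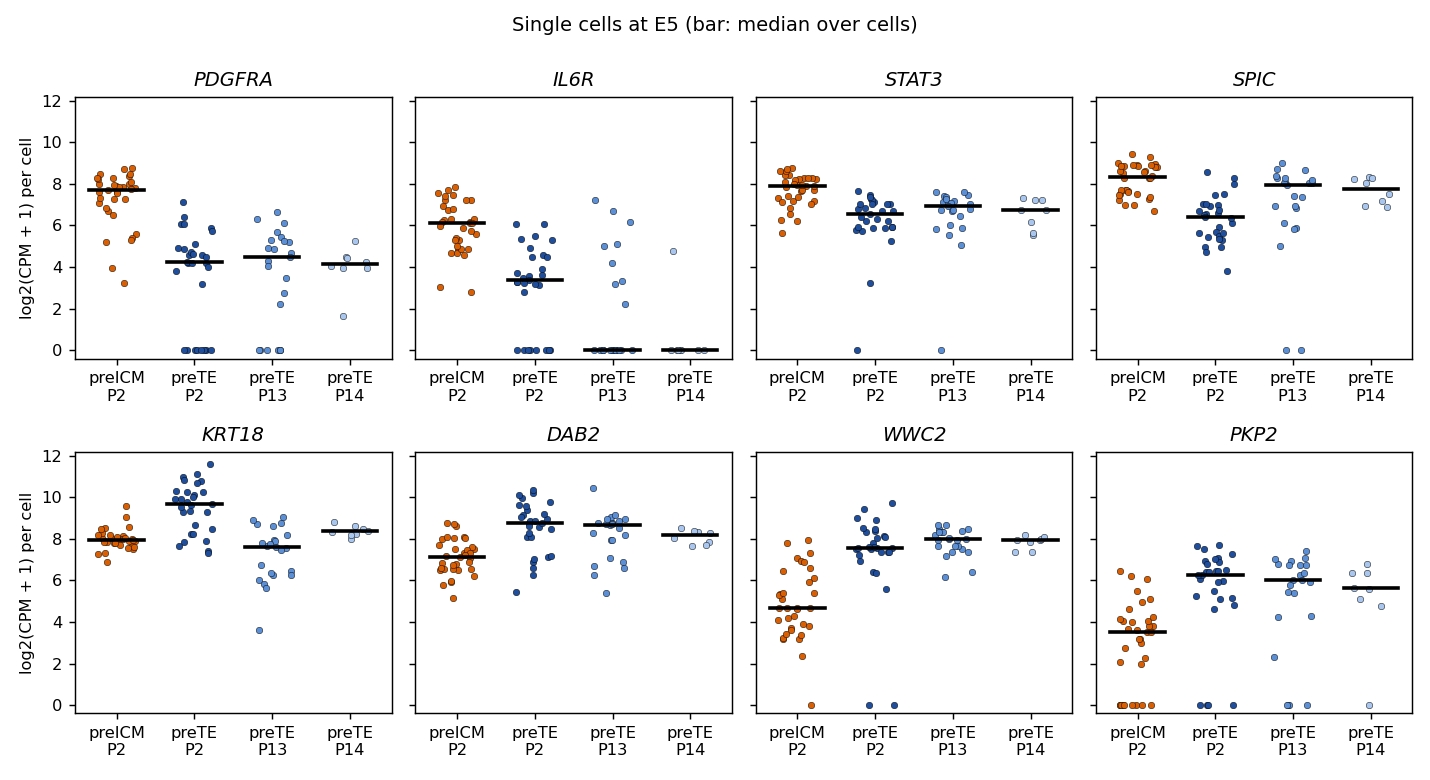
log2(CPM + 1) of single cells for 8 genes, with the preICM_E5 cells of P2 (n = 34) left of the preTE_E5 cells of P2 (n = 29), P13 (n = 23) and P14 (n = 8); each point is 1 cell and the bar is the median over cells. In P2 PDGFRA has medians of 209 CPM in preICM_E5 and 18.2 CPM in preTE_E5, and KRT18 of 245 CPM in preICM_E5 and 803 CPM in preTE_E5, with overlap of single cells in both.

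Among the preTE_E5 cells of P2, the 2 keratins went together, with a Spearman correlation of 0.93 between KRT18 and KRT8 over 29 cells. It was 0.58 over the 34 preICM_E5 cells and -0.45 over the 23 preTE_E5 cells of P13, so the relation did not carry to the second library. KRT18 correlated at 0.63 with LRP2, at 0.55 with DAB2 and at -0.22 with the counts of the cell in preTE_E5 of P2. In preICM_E5 PDGFRA correlated at 0.58 with STAT3, at 0.45 with OTX2, at 0.05 with SPIC and at 0.29 with the counts of the cell. In preTE_E5 cells of P2 and P13 the correlation of PDGFRA was -0.19 and -0.37 with STAT3, 0.21 and 0.13 with OTX2, and 0.56 and 0.19 with the counts of the cell. All cells of such a correlation share a library, and depth differs between them.

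**Figure D4:**
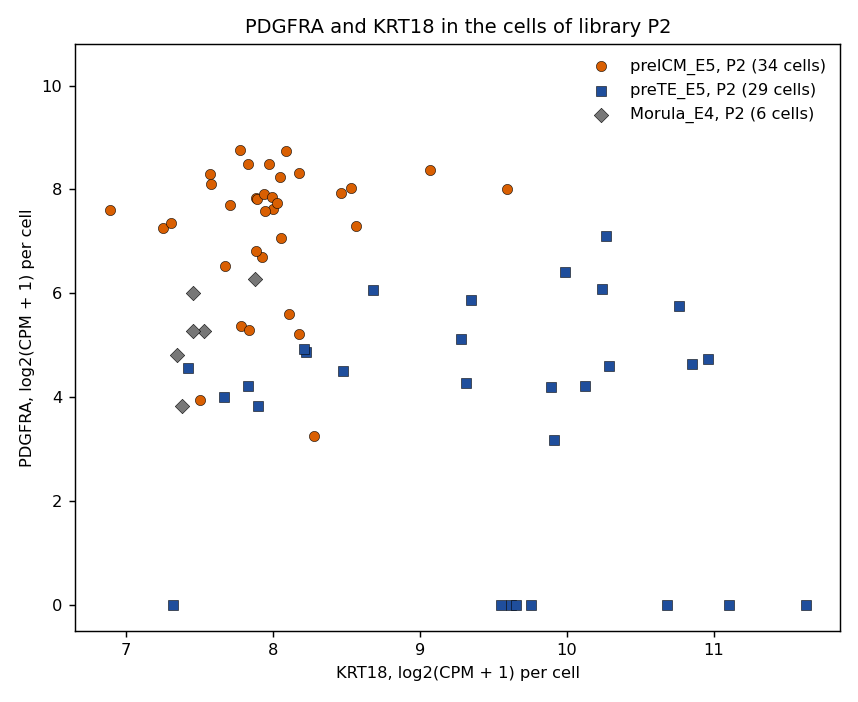
log2(CPM + 1) of KRT18 (horizontal axis) and PDGFRA (vertical axis) in the single cells of library P2, for 34 preICM_E5, 29 preTE_E5 and 6 Morula_E4 cells; each point is 1 cell. In preICM_E5 PDGFRA has a median of 209 CPM and KRT18 reaches 772 CPM. In preTE_E5 PDGFRA has a median of 18.2 CPM and KRT18 spreads from 159 to 3155 CPM, over cells of 7608 to 431704 counts.

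P2 also held 6 morula cells, which gives the level of day 4 in the same library. The 2 groups were about as far from it: the Spearman correlation over genes was 0.845 between preICM_E5 and the morula sum and 0.850 between preTE_E5 and the morula sum. For 11 of the 12 genes with the largest ratios in favour of preICM_E5, the preICM_E5 sum was the one farther from the morula. These genes were chosen for a preICM_E5 sum above every preTE_E5 sum, which by itself favours such a count. The share over all genes was not computed. PDGFRA had 39.7 CPM in the morula sum, which put preICM_E5 2.40 above it and preTE_E5 -0.25 from it on the log2 scale. IL6R likewise was 2.39 above the morula in preICM_E5 and 0.09 in preTE_E5. KIT was the exception, at 0.74 in preICM_E5 and -1.16 in preTE_E5. Both E5 groups share the morula sum here, so the values are set side by side without a test.

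For the 12 genes with the largest ratios against preICM_E5 the picture was mixed. In 7 of them the preTE_E5 sum was the one farther from the morula, although these genes too were chosen by the day 5 sums. CITED2 was 1.30 above the morula in preICM_E5 and 3.08 in preTE_E5, SLC19A3 0.93 in preICM_E5 and 2.97 in preTE_E5, and OCLN -0.88 in preICM_E5 and 1.19 in preTE_E5. In the other 5, PKP2, TEAD1, WWC2, CLDN8 and HOXD1, the preICM_E5 sum was the farther one. WWC2 was -2.11 from the morula in preICM_E5 and 0.06 in preTE_E5, and PKP2 was -1.99 in preICM_E5 and 0.38 in preTE_E5. TEAD4 was below the morula in both groups, at -1.95 in preICM_E5 and -0.88 in preTE_E5, and SOX2 also, at -1.22 in preICM_E5 and -2.33 in preTE_E5.

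A test over samples was made with edgeR's quasi-likelihood test on the 63 sums of at least 5 cells of all embryonic groups, with library as a block, in which the lone preICM_E5 sum is assumed to vary like the other groups. Of 22931 genes none passed an adjusted p of 0.05 after Benjamini-Hochberg adjustment (0%), 394 had an unadjusted p under 0.05, and the lowest adjusted p was 0.606. The fitted log2 difference of PDGFRA was 2.78 ± 0.75 (SE), with an adjusted p of 0.730 by edgeR's quasi-likelihood test; that of PKP2 was -2.83 ± 0.82 and that of WWC2 -2.73 ± 0.77, with the same adjusted p. The count depended on which cells entered. It was 51 genes with sums of at least 10 cells, 31 with cells of at least 100000 counts and 10 with cells of at least 6000 detected genes, and 5 by DESeq2, all 5 at no more than 5.98 CPM in either P2 sum. PDGFRA was among the genes called in the 3 edgeR alternatives that called any, with log2 differences of 2.74, 2.76 and 2.72. Its preICM_E5 sum was above each of 3 preTE_E5 sums, which the rule that named it required. KRT18 was called in these 3 as well, with log2 differences of -1.42, -1.34 and -1.26. The other edgeR alternatives called no gene at day 5, and the 100000-count limit was chosen after seeing the data. The fit with sums of at least 10 cells had 3 residual degrees of freedom, against 11 in the main fit. It lacks the sums of 6 morula cells in P2 and of 8 preTE_E5 cells in P14.

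At day 6 the groups ICM_E6 and TE_E6 met in 2 libraries, P14 and P15, neither of which held a preICM_E5 cell. In the same edgeR quasi-likelihood fit, 878 of 22931 genes passed an adjusted p of 0.05 by Benjamini-Hochberg, 355 (1.55%) higher and 523 (2.28%) lower in ICM_E6. The count was 263 without P15 and 382 without P14, and 547 without the library block. Among the 8282 genes of at least 10 CPM at day 5, 217 (2.62%) were higher in ICM_E6 and 379 (4.58%) lower. Of the 309 genes at least 2-fold higher in preICM_E5, 83 were higher in ICM_E6, which is 26.9% of the 309 and 38.25% of the 217, and 1 was lower. Of the 391 genes at least 2-fold lower in preICM_E5, 117 were lower in ICM_E6, 29.9% of the 391 and 30.9% of the 379, and 5 were higher. For the held genes the counts were 70 of 248 higher (28.2%) and 75 of 233 lower (32.2%). Day 5 and day 6 share no cell, but preTE_E5 cells of P14 and the day 6 cells of P14 came from 1 library.

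PDGFRA had 90.1 and 245 CPM in ICM_E6 of P14 and P15, against 0.812 and 2.14 CPM in TE_E6, a fitted log2 difference of 6.61 ± 0.71 (SE; edgeR, adjusted p = 3.51e-17). STAT3 had 150 and 282 CPM in ICM_E6, against 4.92 and 3.22 CPM in TE_E6, OTX2 had 354 and 350.5 CPM in ICM_E6, against 5.55 and 6.003 CPM in TE_E6, and IL6R had 75.9 and 210.5 CPM in ICM_E6, against 1.76 and 9.004 CPM in TE_E6. The ICM_E6 sums were above the TE_E6 sums in both libraries for all of these, and for PDGFRA, STAT3 and OTX2 both TE_E6 sums lay below all 3 preTE_E5 sums of day 5. SOX2 and NANOG, which were not held or scarcely counted at day 5, were higher in ICM_E6 than in TE_E6. SOX2 had 52.2 and 97.8 CPM in ICM_E6, against 0.676 and 5.15 CPM in TE_E6, with a log2 difference of 5.04 ± 0.82 (edgeR, adjusted p = 1.82e-07). Its ICM_E6 sums lay on either side of the preICM_E5 sum of 56.25 CPM, and both TE_E6 sums were below all 3 preTE_E5 sums. NANOG had 40.6 and 32.3 CPM in ICM_E6, against 0.451 and 1.72 CPM in TE_E6.

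KRT18 had 456 and 141 CPM in ICM_E6, against 1825 and 1987 CPM in TE_E6, a log2 difference of -3.08 ± 0.32 (SE; edgeR, adjusted p = 6.34e-18). GATA2 had 30.5 and 2.24 CPM in ICM_E6, against 252 and 227 CPM in TE_E6, and GATA3 14.8 and 2.24 CPM in ICM_E6, against 166 and 122 CPM in TE_E6. DAB2 had 121 and 26.5 CPM in ICM_E6, against 750 and 890 CPM in TE_E6. Of the keratin and desmosome list, 7 of 9 genes were lower in ICM_E6 than in TE_E6 and none higher by the edgeR test. Of 19 tight junction genes 7 were lower and 0 higher, and of 25 actin genes 9 were lower and 1 higher. Of the hypoblast list 4 of 8 were higher in ICM_E6 than in TE_E6 and 1, LAMC1, was lower, and of the FGF list 4 of 8 were higher and none lower. Beside these list counts, 2.62% of the 8282 genes of at least 10 CPM at day 5 were higher in ICM_E6 and 4.58% lower. Not every gene kept its direction or a difference. CITED2 had 147.5 and 131 CPM in ICM_E6, against 120 and 90.5 CPM in TE_E6, with an adjusted p of 1 by edgeR. TMEM138, NUPR1 and RASSF4, higher in preICM_E5, had fitted differences of -1.71 ± 1.15, -1.17 ± 0.78 and -1.15 ± 1.15 at day 6, none past the threshold. The ICM_E6 sum of RASSF4 was below that of TE_E6 in both libraries, those of TMEM138 and NUPR1 in P15 alone. TMEM138 had 8.19 and 0.898 CPM in ICM_E6 of P14 and P15, against 7.85 and 13.7 CPM in TE_E6. NUPR1 had 89.6 and 18.85 CPM in ICM_E6, against 76.2 and 91.1 CPM in TE_E6. POU5F1 (238 and 398 CPM in ICM_E6, 267 and 362.5 CPM in TE_E6) and GATA6 (156 and 230 CPM in ICM_E6, 129 and 132 CPM in TE_E6) did not pass the test at day 6 either.

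The difference between day 6 and day 5 was itself tested in the same edgeR fit, and 67 of 22931 genes passed (0.292%). Among the 37 genes named by rule these were PDGFRA, FAM111A, KRT8 and DAB2, each with a larger difference at day 6 in the direction it had at day 5. Among the other list members they were OTX2, APOA1, SPRY1, APOE and APOC3, each with a positive difference of day 6 minus day 5, and ACTN1, S100A11, DPPA5 and GADD45A, each with a negative one. APOA1 had 463 and 581 CPM in ICM_E6, against 14.3 and 6.86 CPM in TE_E6. SPRY1, an inhibitor of FGF receptor signalling, had 14.03 CPM in preICM_E5 and 15.4 CPM in preTE_E5 of P2, and at day 6 89.25 and 88.4 CPM in ICM_E6, against 1.89 and 1.93 CPM in TE_E6.

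**Figure D5:**
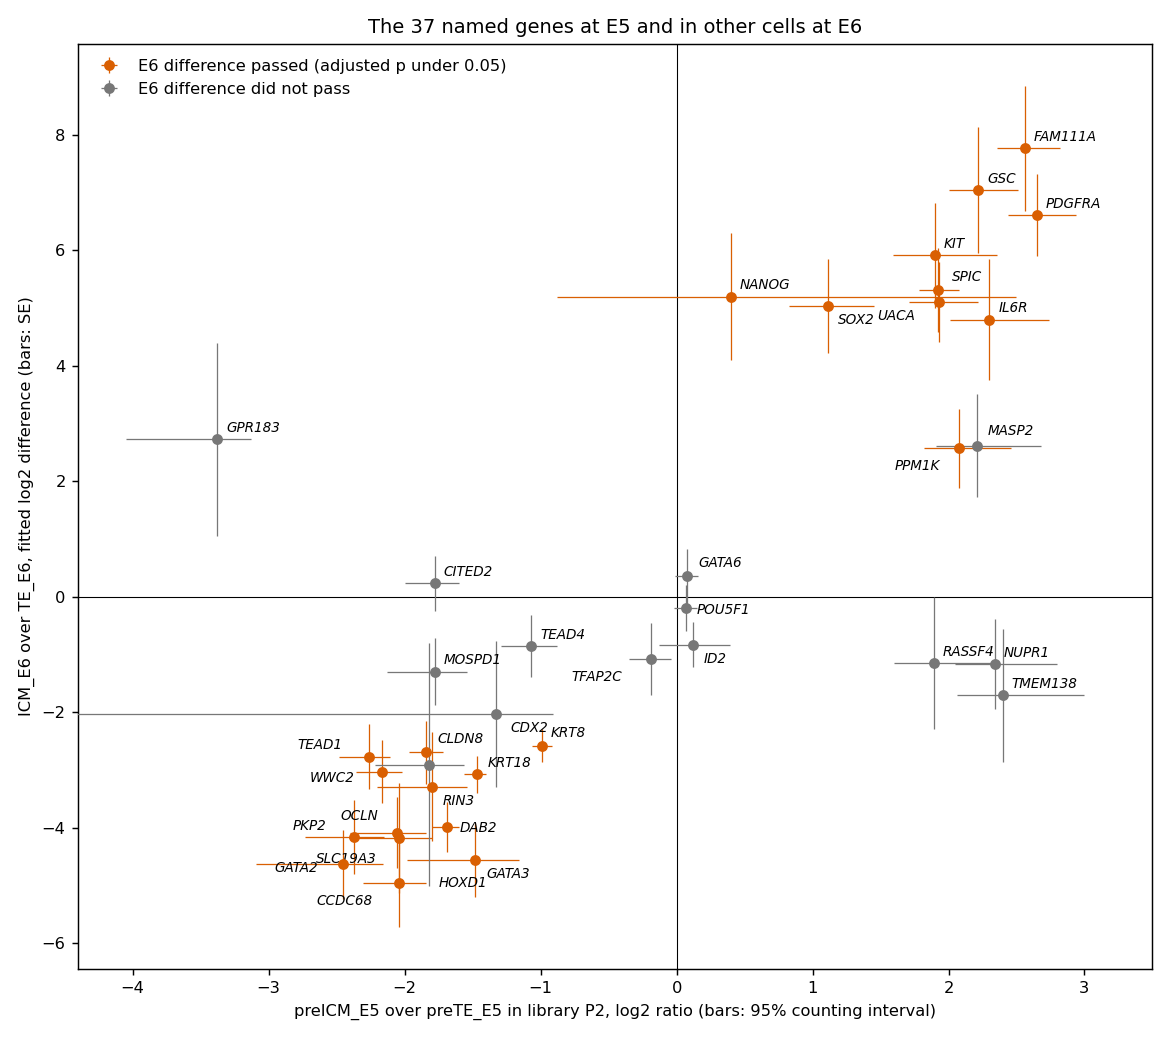
Log2 ratio of preICM_E5 over preTE_E5 in library P2 (horizontal axis) against the fitted log2 difference of ICM_E6 over TE_E6 from P14 and P15 (vertical axis) for the 37 named genes, in orange where the day 6 difference passed the edgeR test; horizontal bars are 95% counting intervals, the one of CDX2 running beyond the axis, and vertical bars are 1 SE. PDGFRA lies at 2.65 and 6.61 and KRT18 at -1.47 and -3.08, while TMEM138, NUPR1 and RASSF4 lie above 0 at day 5 and below 0 at day 6.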

How the data were processed

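Per the labels' protocols, single cells were lysed with cell barcodes and read by a modified Smart-seq2 method. The submitters' processing notes name the build Sscrofa11.1 and the tools UMI-tools, featureCounts 1.6.4 and STAR 2.7.1a. The authors deposited raw counts of 29306 features (29214 pig genes and 92 spike-ins) per cell, and for 39 groups of cells the mean and the spread on a log2 scale of CPM/10 + 1, for 25749 genes. Gene names came from the reference table (14792 genes) or, for 1065 genes, from the name whose deposited means matched the counts. Counts were summed per group and library, without spike-ins.

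Sums of at least 5 cells of all embryonic groups were fitted with edgeR 4.0.16 (R 4.3.3; filter on low counts, TMM scaling, quasi-likelihood test, group and library, Benjamini-Hochberg over 22931 genes). It had 11 residual degrees of freedom; none was left with the 2 groups alone and the block. DESeq2 1.42.0 served as an alternative. Ratios within P2 used log2(CPM + 1). Python 3.11.15, numpy 2.4.6, pandas 2.3.3, scipy 1.17.1 and matplotlib 3.10.9 made the tables and figures. The script was tested on simulated data. Gene positions are those of RefSeq on Sscrofa11.1.

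The groups, members, 22 gene lists (352 genes, 323 measured) and tests were chosen with earlier results of these data known. The naming rule asked for genes past the test, of which there were none, so a rule of size was used after values had been seen: in each direction the 12 largest P2 ratios with at least 50 CPM in the higher sum that were held, leaving out genes of ribosomes and mitochondria and those with no symbol. To these came 13 genes named whatever their values, and list members. Nothing in the labels says that libraries came from separate embryos, so the spread behind the p-values is that between sums of cells and may be technical.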

Additional observations from a re-analysis of the deposited data

Results flagged for a closer look

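For 4 of the 37 genes named by rule and 9 other list members the difference between the lineages was not the same on day 6 as on day 5, by a test of the difference of differences in edgeR's quasi-likelihood fit with Benjamini-Hochberg adjustment over all genes. Day 6 minus day 5 was 3.83 ± 1.00 on the log2 scale for PDGFRA (SE; adjusted p = 0.0417) and 6.13 ± 1.59 for FAM111A (adjusted p = 0.0410), so that both favoured the inner cells more at day 6. It was -2.04 ± 0.42 for KRT8 (adjusted p = 0.00181) and -2.79 ± 0.62 for DAB2 (adjusted p = 0.00455), so that both favoured the trophectoderm more at day 6. ICM_E6 was above TE_E6 in 2 of 2 libraries for PDGFRA and FAM111A and below it in 2 of 2 for KRT8 and DAB2. Of the other list members, day 6 minus day 5 was positive for APOC3 (5.92 ± 1.23, adjusted p = 0.00188 by edgeR), SPRY1 (5.21 ± 1.27, adjusted p = 0.0204), APOA1 (5.04 ± 0.48, adjusted p = 5.78e-21), OTX2 (4.29 ± 0.84, adjusted p = 0.000633) and APOE (3.21 ± 0.67, adjusted p = 0.00212). It was negative for GADD45A (-4.03 ± 1.03, adjusted p = 0.0336 by edgeR), DPPA5 (-2.96 ± 0.69, adjusted p = 0.0102), ACTN1 (-2.72 ± 0.70, adjusted p = 0.0379) and S100A11 (-2.59 ± 0.52, adjusted p = 0.00101). ICM_E6 was above TE_E6 in 2 of 2 libraries for the first 5 and below it in 2 of 2 for the other 4. APOC3 and APOE were under 10 CPM in both P2 sums. The day 5 side of each rests on the 1 preICM_E5 sum, and the libraries differ between the days.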

How the results depend on the processing

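At day 5 the count of genes called was 0 without a replicate block, as with it, and 0 in the fit of the 2 groups alone, with each of P1, P13, P14 and P15 left out in turn, and under the other scalings and filters, except 51 with sums of at least 10 cells, 31 with cells of at least 100000 counts, 10 with cells of at least 6000 detected genes and 5 by DESeq2. The library is the block that pairs groups; without it the count at day 6 was 547, against 878 with it. That count was 1765 with sums of at least 10 cells, 1466 with cells of at least 100000 counts and 132 without trended dispersion, and ranged from 263 to 1005 when 1 library was left out. With a pseudocount of 10 in place of 1, 141 genes were at least 2-fold higher and 210 lower within P2. From the deposited group means, which average a log scale over all libraries, 13 list members were at least 2-fold higher and 5 lower, against 18 and 31. From these means, which pool the preTE_E5 cells of P2, P13 and P14, the ratio was -0.51 for KRT18, -0.19 for GATA3 and -0.46 for CCDC68. It was -0.29 for HOXD1 and -0.01 for GPR183. Such ratios are not within P2, so they differ from the P2 ratios in cells as well as in scale. Over all alternatives 70 ratios of the 37 genes named by rule moved beyond the counting interval of the P2 ratio, and 263 did not. Of the 70, 28 came with the deposited means, which are not of P2 alone, and 25 with the pseudocount of 10. The fitted difference changed sign for 2 genes that did not pass the test in any fit. For NANOG, -0.07 became 0.72 with sums of at least 10 cells, 0.33 with at least 6000 genes, 0.70 without P13, 0.68 without P1, 0.70 without the 4-cell sums and 1.24 with at least 100000 counts. For GATA6, -0.71 became 0.56 without the block, 0.50 with the 2 groups alone, 0.13 with sums of at least 10 cells, 0.11 without P13, 0.09 without P1, 0.11 without the 4-cell sums and 0.13 with at least 100000 counts. The cause was not tested. Leaving out P1, P13 or the 4-cell sums, the 100000-count limit, TMM scaling of the P2 ratios and the alternatives for day 6 were chosen after seeing the data. No value exists without P2, which holds every preICM_E5 cell. Where preTE_E5 cells are shallow, a count of 0 in a cell does not show that the RNA was absent.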

Other observations

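The edgeR alternatives that called genes at day 5 had 29 genes in at least 2 of 3 in common and 7 in all 3, which are named here after their values were seen: ISYNA1, PDGFRA, PDPN, KRT18, TRIM77, PERP and MARCKS. ISYNA1, which makes inositol phosphate from glucose phosphate, had 95.5 CPM in preICM_E5 and 27.6 CPM in preTE_E5 of P2. MARCKS, a substrate of protein kinase C at the membrane, had 407 CPM in preICM_E5 and 167.5 CPM in preTE_E5 of P2. PDPN, the membrane glycoprotein podoplanin, had 23.5 CPM in preICM_E5 and 143 CPM in preTE_E5 of P2, but its preICM_E5 sum was not below both other preTE_E5 sums. ITGA5, the fibronectin receptor subunit, was called in 2 of the 3 and had 18.5 CPM in preICM_E5 and 3.68 CPM in preTE_E5 of P2. The tropomyosin TPM1, also called in 2 of the 3, had 66.7 CPM in preICM_E5 and 220.5 CPM in preTE_E5 of P2.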
